A study of Mus musculus with 9 samples.

Results

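Purinergic and adenosine signalling was followed through 8 genes of the retina, chosen by name, with earlier results of these data known. They were the ATP-gated ion channels P2rx7 and P2rx4, the ADP receptor P2ry1, the ectonucleotidases Entpd1 (CD39) and Nt5e (CD73), and the adenosine receptors Adora1, Adora2a, and Adora2b. All 8 were among the 54532 genes of the deposited table, and all 8 passed the filter on low counts that left 17540 genes for testing. Bulk RNA-Seq had been performed on retinas of 9 wild-type C57BL/6 mice at P17, with 3 mice per group. Control mice were kept in room air. Both other groups underwent oxygen-induced retinopathy (OIR), in which pups are raised in hyperoxia and then returned to room air, so that the retina becomes ischemic and grows abnormal vessels. OIR mice received DMSO by a single intraocular injection at P12, and treated OIR mice received 32-134D, an inhibitor of the hypoxia-inducible factors (HIFs), at the same age. The treatment label gives its dose as 70 ng, whereas the protocol gives 70 ng/µL. DMSO is also named in the label of the control mice. Mice are named here by their label numbers: controls 1, 6, and 7; OIR animals 3, 5, and 6; and treated animals 2, 5, and 10. The labels do not say that a shared number marks a shared litter or day.

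ATP and ADP released by stressed or active cells act on P2X channels and P2Y receptors, which in the retina are carried by neurons, glia, microglia, and vessels. At the cell surface, Entpd1 converts ATP and ADP to AMP, and Nt5e converts AMP to adenosine. Adenosine then acts on its own receptors, of which Adora1 is coupled to inhibition of adenylyl cyclase and Adora2a and Adora2b to its stimulation. Adenosine is known for dilating retinal vessels, for damping transmitter release, and for accumulating in ischemic tissue, and Nt5e and Adora2b are known as HIF targets in other tissues.

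Because the treatment was directed at HIFs, the promoters of the 8 genes were searched for the core letters of the hypoxia response element, ACGTG and GCGTG, on both strands, over the 250 bases before each RefSeq start (GRCm38.p6). RefSeq windows were matched for 7 of the 8 genes (all but Adora2a), in 10 windows. At least 1 match was found in 6 of the 10 windows, belonging to 5 genes (Adora1, Adora2b, Entpd1, Nt5e, and P2ry1), and no 2 matches overlapped. Of 32851 RefSeq windows of the same length, 16.6% held ACGTG, 28.2% held GCGTG, and 38.6% held either, so that these letters are common in promoters. The windows of the 3 genes with the smallest p-values in OIR are shown together with that of P2rx4, which lies near P2rx7 on chromosome 5, on the same strand, and showed little difference in OIR. They run 5′ to 3′ on the strand of the gene up to the base before the start, with matches on either strand in capitals. They are chr1:134235458-134235707 (minus strand) for Adora1, chr3:61002535-61002784 (plus strand) for P2ry1, chr5:122643677-122643926 (plus strand) for P2rx7, and chr5:122707294-122707543 (plus strand) for P2rx4.
Adora1: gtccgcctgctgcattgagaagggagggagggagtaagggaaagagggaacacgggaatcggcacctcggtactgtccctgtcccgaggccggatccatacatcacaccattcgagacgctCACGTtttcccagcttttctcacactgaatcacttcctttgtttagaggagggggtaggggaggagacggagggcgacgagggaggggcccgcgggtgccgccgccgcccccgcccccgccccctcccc
P2ry1: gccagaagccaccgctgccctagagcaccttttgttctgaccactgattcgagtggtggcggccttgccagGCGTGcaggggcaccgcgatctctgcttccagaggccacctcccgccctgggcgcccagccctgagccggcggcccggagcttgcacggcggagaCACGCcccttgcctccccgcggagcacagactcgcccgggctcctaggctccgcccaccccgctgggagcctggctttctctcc
P2rx7: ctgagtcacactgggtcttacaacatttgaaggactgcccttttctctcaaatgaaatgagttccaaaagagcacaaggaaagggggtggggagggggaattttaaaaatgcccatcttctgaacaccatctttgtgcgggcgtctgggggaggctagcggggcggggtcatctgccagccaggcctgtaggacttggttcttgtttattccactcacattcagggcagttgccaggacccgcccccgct
P2rx4: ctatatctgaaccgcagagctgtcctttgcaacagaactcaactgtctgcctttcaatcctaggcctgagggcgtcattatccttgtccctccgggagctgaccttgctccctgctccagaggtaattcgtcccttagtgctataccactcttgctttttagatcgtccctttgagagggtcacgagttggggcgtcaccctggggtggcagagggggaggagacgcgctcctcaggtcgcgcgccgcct
The Adora1 window held ACGTG once, beginning 129 bases before the start, and a window at a second Adora1 start, inside the gene, held GCGTG 3 times. The P2ry1 window held GCGTG at 179 and at 84 bases before the start. Neither the P2rx7 window nor the P2rx4 window held either motif. A match describes these letters and is not evidence of HIF binding, which was not measured here.

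The control libraries held 16864135 to 27213184 counts, the OIR libraries 18556723 to 21071371, and the treated OIR libraries 16028731 to 18560178. Treated OIR mouse 2 stood apart. Crystallin genes, which encode the proteins of the lens, held 15.8% of its counts and at most 0.186% in any other mouse. The summed markers of retinal ganglion cells reached only 47.8 CPM (counts scaled to library size) there, against 859 and 888 in treated OIR mice 5 and 10. This sum was also low in OIR mouse 6, at 98.2 CPM. Values without treated OIR mouse 2 are given for each of the 8 genes in comparisons that use it, and for some of the other genes. Rod markers summed to between 36131 and 67985 CPM in every mouse, and no marker of rods or Müller glia was at 0. Xist and Y-linked transcripts marked 1 control, 1 OIR, and 2 treated OIR mice as female. The lowest count of any of the 8 genes in a mouse was 19 (P2rx7), a counting error of 22.9%, and the most abundant gene, Nt5e, had at least 1924, a counting error of 2.28%.

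None of the 8 genes passed edgeR's test on all 9 mice in any comparison. Counts were fitted for all genes and all 9 mice with edgeR's quasi-likelihood test, and a gene was called at a Benjamini-Hochberg adjusted p below 0.05 over the 17540 genes. Between OIR and control, this calls 0 of the 8 genes, beside 0.941% of all genes. At an unadjusted p below 0.05, 1 of the 8 was higher (P2rx7), beside 11.1% of all genes, and 2 were lower (Adora1 and P2ry1), beside 12.7%. In treated OIR against control, 0 of the 8 genes were called, beside 0.0228% of all genes. Unadjusted, 1 was higher (Adora2a), beside 10% of all genes, and 0 were lower, beside 8.6%. For treated OIR against OIR, 0 of the 8 genes were called and 0 passed unadjusted in either direction, where 0% of all genes were called and 2.39% and 2.3% were higher and lower without adjustment. The number of calls among the 8 genes depended on the tool. DESeq2 on the 2 groups compared called Adora1 and P2rx7 between OIR and control, beside 16.2% of all genes, and Adora2a between treated OIR and control, beside 2.38%. It called 0 of the 8 genes between treated OIR and OIR, beside 0.454%. DESeq2 on all 9 mice called 1 of the 8 genes between OIR and control (Adora1), beside 13.5% of all genes, 1 between treated OIR and control (Adora2a), beside 5.47%, and 0 between treated OIR and OIR, beside 0.214%. Limma-voom called the same genes, beside 13.1%, 5.28%, and 0.0057% of all genes in the 3 comparisons. edgeR on the 2 groups compared called Adora1 between OIR and control, beside 10.3%, and 0 of the 8 genes in each of the other comparisons, beside 0% in both.

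**Figure D1:**
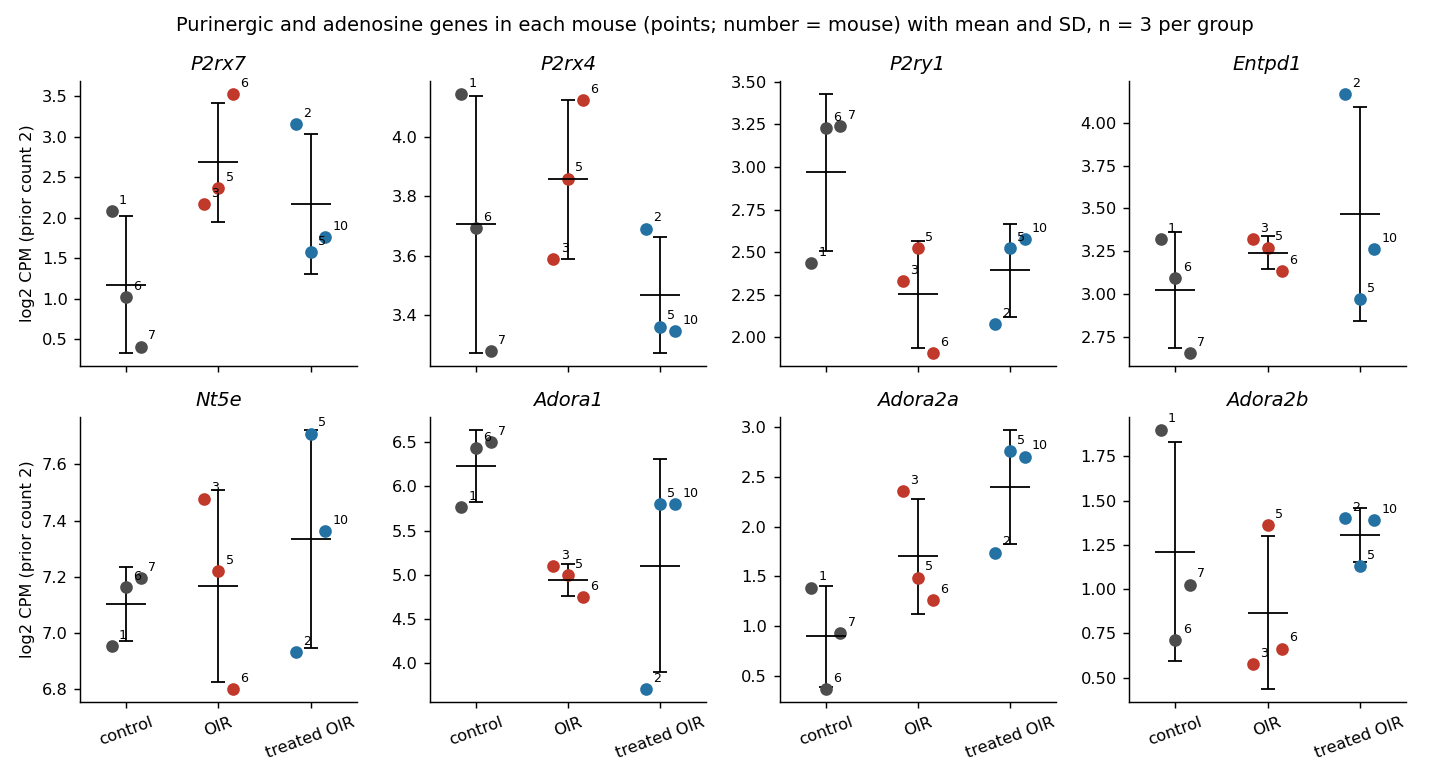
Each panel plots 1 gene, with the log2 CPM of every mouse (prior count 2) on the vertical axis, points for mice labelled by their number, and horizontal lines with error bars for the mean and SD of 3 mice per group. All OIR mice lie above all control mice for P2rx7 and below them for Adora1, all treated OIR mice lie above all control mice for Adora2a, and treated OIR mouse 2 lies apart from the other two treated mice for P2rx7, Entpd1, and Adora1.

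P2rx7 encodes a channel that opens at high ATP concentrations and is known for triggering inflammasome activation in microglia and macrophages. The gene (ENSMUSG00000029468) spans 122643911 to 122691432 on the plus strand of chromosome 5. It had 118, 39, and 19 counts in control mice 1, 6, and 7, which is 2.08, 1.02, and 0.41 log2 CPM. In OIR mice 3, 5, and 6 the counts were 82, 108, and 254, or 2.17, 2.36, and 3.53 log2 CPM. In treated OIR mice 2, 5, and 10 they were 139, 47, and 64, or 3.16, 1.58, and 1.76 log2 CPM. Every OIR mouse was thus above every control mouse, although OIR mouse 3 was above control mouse 1 by less than the spread within either group, and the treated mice overlapped both groups. The log2 fold change between OIR and control was 1.50 (SE 0.60, 95% interval 0.14 to 2.86), a 2.82-fold difference with an edgeR p of 0.0345 and an adjusted p of 0.177, whereas DESeq2 on the 2 groups compared gave an adjusted p of 0.0266. As 1 mouse at a time was left out, this value ran from 0.94 (without OIR mouse 6) to 2.13 (without control mouse 1), and the edgeR p rose to 0.159 without OIR mouse 6, 0.0976 without control mouse 6, and 0.105 without control mouse 7. Between groups that did not overlap, P2rx7 was the 1 of the 8 genes that was higher in OIR, beside 15.9% of all genes. It was 1.02 higher on the log2 scale in treated OIR than in control mice (SE 0.60, edgeR adjusted p = 0.385) and differed by -0.48 between treated OIR and OIR (SE 0.59, interval -1.81 to 0.85). These values depended on treated OIR mouse 2. Without it the log2 fold change was 0.32 between treated OIR and control and -1.14 between treated OIR and OIR (edgeR adjusted p = 0.833 and 0.445). In whole retina, fewer cells of a type and less RNA per cell cannot be told apart, for this gene and for those that follow.

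P2rx4 encodes a channel that responds to lower ATP concentrations and is found on microglia, neurons, and endothelium. The gene (ENSMUSG00000029470) spans 122707544 to 122729738 on the plus strand of chromosome 5. It had 4.14, 3.69, and 3.28 log2 CPM in controls 1, 6, and 7, against 3.59, 3.86, and 4.12 in the OIR group (3, 5, and 6) and 3.69, 3.36, and 3.35 in the treated group (2, 5, and 10). The 3 groups overlapped, with control mouse 1 and OIR mouse 6 at the top and control mouse 7 at the bottom. Its difference on the log2 scale was 0.12 between OIR and control (SE 0.24, interval -0.42 to 0.67), -0.28 between treated OIR and control (SE 0.24, interval -0.83 to 0.27), and -0.40 between treated OIR and OIR (SE 0.24, interval -0.95 to 0.15). Leaving out treated OIR mouse 2, the latter values were -0.40 and -0.49 (edgeR adjusted p = 0.515 and 0.501). None of these differences was detectable against the spread among mice.

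P2ry1 encodes the G protein-coupled ADP receptor that releases calcium in glia and drives platelet shape change. The gene (ENSMUSG00000027765) spans 61002795 to 61008982 on the plus strand of chromosome 3. It had 152, 187, and 145 counts in control mice 1, 6, and 7, or 2.44, 3.23, and 3.24 log2 CPM. OIR mice 3, 5, and 6 had 92, 121, and 81 counts, or 2.33, 2.52, and 1.90 log2 CPM. Treated OIR mice 2, 5, and 10 had 65, 92, and 114 counts, or 2.08, 2.52, and 2.58 log2 CPM. Control mice 6 and 7 were above all 6 mice with OIR, but control mouse 1 was among them, so that the groups overlapped. The log2 fold change between OIR and control was -0.75 (SE 0.29, interval -1.40 to -0.09), or 1.68-fold lower, with an edgeR p of 0.0293 and an adjusted p of 0.164. It ran from -0.98 without control mouse 1 to -0.59 without OIR mouse 6, and the edgeR p was between 0.0547 and 0.0975 without control mouse 6, control mouse 7, OIR mouse 3, or OIR mouse 6. It was -0.61 between treated OIR and control (SE 0.29, edgeR adjusted p = 0.294), and between treated OIR and OIR 0.14 (SE 0.29, interval -0.52 to 0.80), or -0.45 and 0.31 without treated OIR mouse 2 (edgeR adjusted p = 0.511 and 0.770). The exons of P2ry1 share 992 bases with the antisense gene Gm37035, which had between 0 and 6 counts. Whether counting used strand is not given in the sources used here, so that reads of both genes could have been joined.

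Neither ectonucleotidase differed between groups by more than the spread among mice in edgeR's fit on all 9 mice. Entpd1 (ENSMUSG00000048120, chromosome 19, 40612366 to 40741602, plus strand) is known on vessels and microglia. It had 3.32, 3.09, and 2.65 log2 CPM in controls 1, 6, and 7, against 3.32, 3.27, and 3.13 in the OIR group (3, 5, and 6) and 4.17, 2.97, and 3.26 in the treated group (2, 5, and 10). Treated OIR mouse 2 was the highest of all 9 mice, while the others lay within 1 log2 unit of each other. On the log2 scale Entpd1 differed by 0.20 between OIR and control (SE 0.31), 0.51 between treated OIR and control (SE 0.31, edgeR adjusted p = 0.397), and 0.32 between treated OIR and OIR (SE 0.31). Without treated OIR mouse 2 the latter values were 0.08 and -0.09 (edgeR adjusted p = 0.909 and 0.940).

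Nt5e (ENSMUSG00000032420, chromosome 9, 88327197 to 88372092, plus strand) had the most counts of the 8 genes, between 1924 and 3544 in a mouse, and so the smallest counting error. It had 6.95, 7.16, and 7.19 log2 CPM in controls 1, 6, and 7, against 7.48, 7.22, and 6.80 in the OIR group (3, 5, and 6) and 6.93, 7.71, and 7.36 in the treated group (2, 5, and 10). The 3 groups overlapped, and the control mice were the closest together. On the log2 scale Nt5e differed by 0.09 between OIR and control (SE 0.22, interval -0.40 to 0.57), 0.26 between treated OIR and control (SE 0.22, interval -0.23 to 0.75), and 0.18 between treated OIR and OIR (SE 0.22, interval -0.31 to 0.66). Each of these 95% intervals lay within 1 log2 unit of 0. Without treated OIR mouse 2 the last values were 0.45 and 0.38 (edgeR adjusted p = 0.334 and 0.444).

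Adora1, the high-affinity adenosine receptor of neurons, had the lowest p-value of the 8 genes between OIR and control. The gene (ENSMUSG00000042429) spans 134199223 to 134235431 on the minus strand of chromosome 1. Control mice 1, 6, and 7 had 1555, 1746, and 1406 counts, or 5.77, 6.44, and 6.50 log2 CPM. OIR mice 3, 5, and 6 had 639, 682, and 594 counts, or 5.10, 5.0, and 4.75 log2 CPM. Treated OIR mice 2, 5, and 10 had 205, 905, and 1086 counts, or 3.71, 5.80, and 5.81 log2 CPM. Every OIR mouse was below every control mouse. Treated OIR mice 5 and 10 lay between the OIR mice and control mice 6 and 7, at the level of control mouse 1, whereas treated OIR mouse 2 was the lowest of all. The log2 fold change between OIR and control was -1.32 (SE 0.46, interval -2.35 to -0.29), or 2.50-fold lower, with an edgeR p of 0.0175 and an adjusted p of 0.133. Leaving out control mouse 7 or OIR mouse 6 gave -1.18 and -1.23, with edgeR p of 0.0521 and 0.0536. Of the 8 genes it was the 1 that was lower in OIR without overlap, beside 17.2% of all genes.

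Whether Adora1 was called between OIR and control changed with the tool and with treated OIR mouse 2, which is in neither group but enters the estimate of spread that the groups share in the fit. Without this mouse the log2 fold change was -1.34 (SE 0.18) and the gene passed the test, with an edgeR adjusted p of 0.00442, beside 12.5% of all genes called in that fit. It was also called by edgeR on the 2 groups compared (adjusted p = 0.0104), by DESeq2 on all 9 mice (adjusted p = 0.0234), by DESeq2 on the 2 groups compared (adjusted p = 2.09e-08), and by limma-voom with sample quality weights (adjusted p = 0.0208). For Adora1 the log2 fold change between treated OIR and control was -0.89 (SE 0.45, edgeR adjusted p = 0.319), or -0.46 without treated OIR mouse 2 (adjusted p = 0.342). Against OIR, the treated mice differed by 0.43 (SE 0.45, interval -0.59 to 1.44). Without this mouse it was 0.88 (SE 0.20), with an edgeR p of 0.00137 and an adjusted p of 0.190. Exons of Adora1 share 1162 bases with Mybph on the other strand, which had between 0 and 9 counts.

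Adora2a, a receptor found on retinal vessels and neurons, was low in control retinas. The gene (ENSMUSG00000020178) spans 75316877 to 75334784 on the plus strand of chromosome 10. Control mice 1, 6, and 7 had 72, 24, and 28 counts, or 1.39, 0.37, and 0.93 log2 CPM. OIR mice 3, 5, and 6 had 94, 58, and 51 counts, or 2.36, 1.49, and 1.26 log2 CPM. Treated OIR mice 2, 5, and 10 had 51, 109, and 125 counts, or 1.74, 2.76, and 2.71 log2 CPM. Every treated OIR mouse was above every control mouse, and the OIR mice overlapped both other groups. The log2 fold change between treated OIR and control was 1.56 (SE 0.43, interval 0.58 to 2.54), or 2.95-fold, with an edgeR p of 0.00575 and an adjusted p of 0.151. Adora2a was the 1 of the 8 genes that was higher in treated OIR than in control without overlap, beside 12.8% of all genes, and 0 of the 8 were lower without overlap, beside 12.2%. It was called by DESeq2 on all 9 mice (adjusted p = 0.0252), by DESeq2 on the 2 groups compared (adjusted p = 0.0441), and by limma-voom (adjusted p = 0.0233). Without treated OIR mouse 2 it was 1.82 (edgeR adjusted p = 0.146). Between OIR and control it was 0.85 (SE 0.43, edgeR adjusted p = 0.267). Between treated OIR and OIR it was 0.71 (SE 0.42, interval -0.25 to 1.66). Without treated OIR mouse 2 the latter value was 1.0 (SE 0.41), with an edgeR p of 0.0381 and an adjusted p of 0.344.

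Adora2b, the low-affinity adenosine receptor, had few counts, with 26 to 104 in a mouse. Its counting error at the lowest count was 19.6%, against 22.9% for P2rx7 and 20.4% for Adora2a. The gene (ENSMUSG00000018500) spans 62248984 to 62266453 on the plus strand of chromosome 11. It had 1.90, 0.71, and 1.03 log2 CPM in controls 1, 6, and 7, against 0.58, 1.36, and 0.67 in the OIR group (3, 5, and 6) and 1.40, 1.13, and 1.39 in the treated group (2, 5, and 10). The 3 groups overlapped, and control mouse 1 was the highest of all 9 mice. The log2 fold change was -0.42 between OIR and control (SE 0.39, interval -1.30 to 0.46), -0.00 between treated OIR and control (SE 0.39, interval -0.87 to 0.87), and 0.42 between treated OIR and OIR (SE 0.39, interval -0.47 to 1.30). Without treated OIR mouse 2 the last values were -0.05 and 0.40 (edgeR adjusted p = 0.972 and 0.819). When treated OIR and OIR were compared, with treated OIR mouse 2 included, 0 of the 8 genes were separate between groups in either direction. Beside this, 3.74% of all genes were higher without overlap and 5.39% were lower. Treated OIR mice 5 and 10 alone were above every OIR mouse for Adora1, Adora2a, and, narrowly, P2ry1. They were below every OIR mouse for P2rx7 and P2rx4, and overlapped the OIR mice for Entpd1, Nt5e, and Adora2b. The share of all genes without overlap was not computed with mouse 2 left out.

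**Figure D2:**
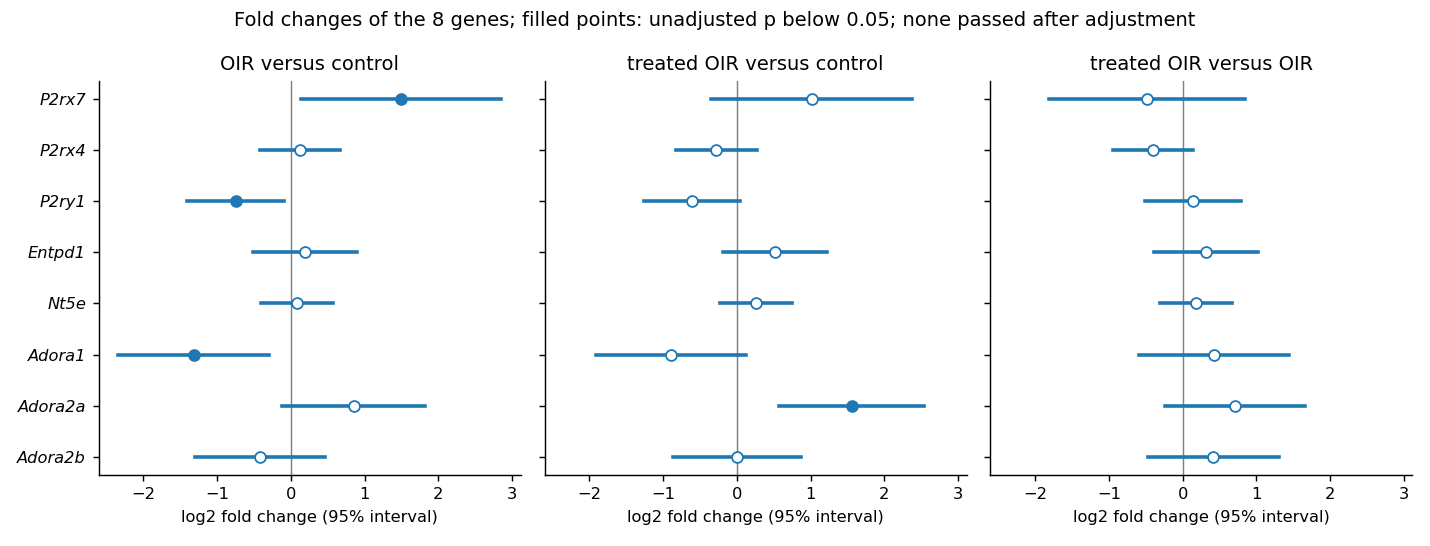
Log2 fold changes of the 8 genes (points) with 95% intervals (lines) are plotted for the 3 comparisons, and filled points have an unadjusted edgeR p below 0.05. The filled points are P2rx7 at 1.50, P2ry1 at -0.75, and Adora1 at -1.32 between OIR and control and Adora2a at 1.56 between treated OIR and control. All 8 intervals between treated OIR and OIR include 0 in this fit on all 9 mice, which holds treated OIR mouse 2.

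Over the 8 genes, the median log2 fold change was 0.10 between OIR and control, 0.13 between treated OIR and control, and 0.25 between treated OIR and OIR, where the medians of all genes tested were 0.03, 0.01, and 0.01. In OIR, 5 of the 8 values were above 0 and 3 below. The 8 genes thus did not share a direction.

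Levels can be compared between genes once counts are scaled to gene length, as RPKM (CPM per kilobase of gene length). In control mice, Nt5e was the most abundant at 16.03 ± 1.43 RPKM (SD, n = 3), followed by Adora1 at 13.3 ± 3.44, and these ranges overlapped. Both were above the next gene, P2rx4, at 1.90 ± 0.570 RPKM. P2rx4, P2ry1, Entpd1, and Adora2b came next, with mean levels between 1.90 and 1.28 RPKM, and neighbours in that order overlapped. Adora2a at 0.600 ± 0.217 RPKM and P2rx7 at 0.406 ± 0.253 RPKM were lowest and overlapped each other. In OIR mice, Nt5e stayed highest at 17.0 ± 3.90 RPKM, Adora1 was second at 5.34 ± 0.657 without overlapping either neighbour, and P2rx7 had 1.16 ± 0.652. With treatment, Nt5e had 19.2 ± 5.07 RPKM, Adora1 7.16 ± 4.26, and Adora2a 1.78 ± 0.627, overlapping its neighbours in the order. The RNA levels of Adora1 and Adora2a can be compared within each mouse, over all cells of the retina together. Receptor protein was not measured here. Adora2a had only 24 and 28 counts in controls 6 and 7, which had the highest ratios. The ratio of Adora1 to Adora2a RPKM was 11.4, 38.5, and 26.6 in controls 1, 6, and 7, against 3.60, 6.22, and 6.16 in the OIR group (3, 5, and 6) and 2.13, 4.39, and 4.60 in the treated group (2, 5, and 10). Every control mouse was above all 6 mice with OIR, and the OIR and treated OIR mice overlapped. This separation was not particular to these receptors. The ratio of P2rx4 to P2rx7 RPKM was also higher in every control mouse than in any mouse with OIR. For Adora1 to Adora2b and for Nt5e to Entpd1, the ratios of control mice overlapped those of mice with OIR. These ratios were formed after the levels were seen, and no test was made on them. How often ratios of other gene pairs separate the groups in this way was not computed.

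**Figure D3:**
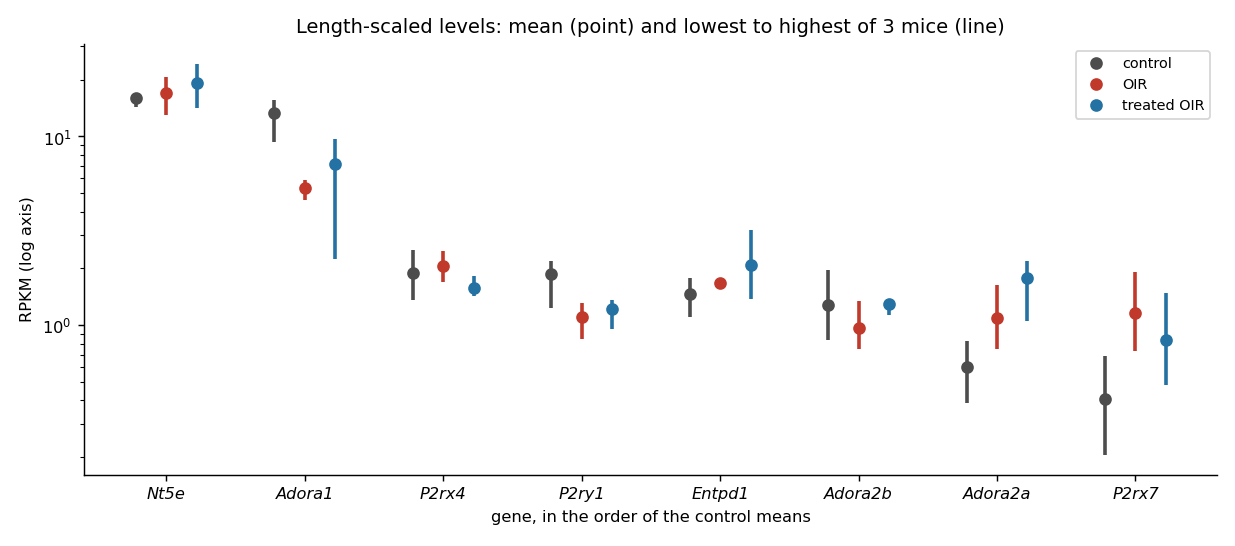
The level of each of the 8 genes is plotted in RPKM on a log axis, with a point for the mean and a line from the lowest to the highest of 3 mice in control, OIR, and treated OIR. Nt5e and Adora1 lie above the other 6 genes in control mice, and the Adora1 line of the OIR mice, 4.62 to 5.91 RPKM, lies below that of the control mice, 9.39 to 15.7.

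Markers of the retinal cell types that may carry these genes also differed between mice. Summed ganglion cell markers were 1006, 1141, and 1465 CPM in controls 1, 6, and 7, against 531, 318, and 98.2 in the OIR group (3, 5, and 6) and 47.8, 859, and 888 in the treated group (2, 5, and 10). Of these 7 markers, 7 were lower in OIR than in control mice without overlap, beside 17.2% of all genes. By edgeR, 2 of them were lower at an unadjusted p below 0.05, beside 12.7%, and 0 were called after adjustment, beside 0.941% in either direction. None of these markers was at 0 in any mouse. The sum was low in the mice in which Adora1 was low. Summed astrocyte markers were 259, 198, and 98.8 CPM in controls 1, 6, and 7, against 302, 367, and 759 in the OIR group (3, 5, and 6) and 457, 234, and 145 in the treated group (2, 5, and 10), with 2 of 4 markers higher in OIR than in control mice without overlap, beside 15.9% of all genes, and none at 0. Gfap, the intermediate filament of astrocytes and of reactive Müller glia, made up 58.9% to 92.5% of this sum. Gfap and P2rx7 were each highest in OIR mouse 6 and next highest in treated OIR mouse 2. The other 3 markers summed to 40.6 to 42.01 CPM in control mice, 50.4 to 71.0 in OIR mice, and 42.04 to 59.7 in treated OIR mice. They did not share the order of P2rx7, with Pax2 highest in OIR mouse 5, Pdgfra highest in OIR mouse 3, and S100b lowest in treated OIR mouse 2. Summed microglia and macrophage markers were 592, 271, and 139 CPM in controls 1, 6, and 7, against 296, 404, and 581 in the OIR group (3, 5, and 6) and 207, 166, and 157 in the treated group (2, 5, and 10), and P2rx4 was highest in the 2 mice in which this sum was highest. Of the 14 microglia markers, 11 were lower after treatment than in vehicle-injected OIR mice without overlap, beside 5.39% of all genes. By edgeR, 9 of the 14 were lower at an unadjusted p below 0.05, beside 2.3%, and 0 were called after adjustment, beside 0%. None of the 14 was at 0. Summed endothelial markers, at 262 to 274 CPM for controls, 363 to 471 after OIR with vehicle, and 304 to 464 after OIR with 32-134D, were lower in every control mouse than in any other mouse, and none of the 10 was at 0. This order rested on Kdr, a VEGF receptor, which made up 31.3% to 77.3% of the sum. Without Kdr, chosen after its values were seen, the other 9 markers summed to 149 to 173 CPM in control mice, 82.5 to 246 in OIR mice, and 96.9 to 313 in treated OIR mice, so that OIR mouse 6 and treated OIR mouse 2 lay below every control mouse. Between OIR and control, 6 of the 10 differences were above 0 and 4 below, and 1 marker was higher without overlap, beside 15.9% of all genes. After adjustment, 1 of the 10 was called, as higher (edgeR adjusted p = 0.0407), beside 0.941% of all genes in either direction. All 10 differences between treated OIR and control were above 0, with 2 markers higher without overlap, beside 12.8% of all genes. Adora2a was highest in treated OIR mice 5 and 10, where the sum of the 9 markers was highest, although not each of the markers was. The part of these cell types in the values of the 8 genes was not tested.

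**Figure D4:**
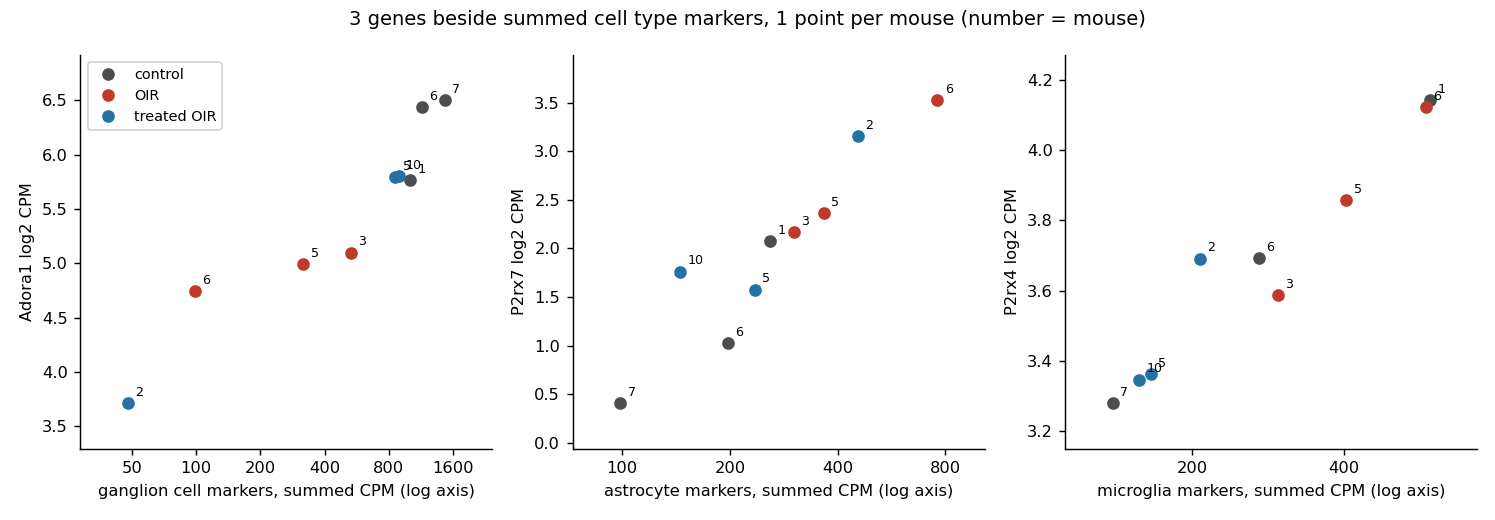
Each panel plots the log2 CPM of 1 gene in each mouse against the summed CPM of a cell type's markers on a log axis (Adora1 with ganglion cells, P2rx7 with astrocytes, P2rx4 with microglia and macrophages), with mice labelled by number and coloured by group. Treated OIR mouse 2 is lowest for both Adora1 (3.71) and ganglion cell markers (47.8 CPM), and OIR mouse 6 is highest for both P2rx7 (3.53) and astrocyte markers (759 CPM, of which Gfap is 703); these pairs were chosen after the values were seen.

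Among themselves, the genes fell into a few patterns over the 9 mice. P2rx7 and P2ry1 ran in opposite directions (Pearson's r = -0.95, Spearman's rho = -0.93), as did P2rx7 and Adora1 (r = -0.89, rho = -0.97), while P2ry1 and Adora1 ran together (r = 0.85, rho = 0.93). Adora2b had no r beyond 0.32 in size with any of the other genes. These coefficients describe 9 mice from 3 groups that differ in treatment and in cell markers, and treated OIR mouse 2 lies at an end of several genes' ranges.

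The genes most like each of the 8 over the 9 mice were picked by Pearson's r of log2 CPM, among 12930 genes with a mean of at least 1 log2 CPM. Most like P2rx7 were Sh3pxd2b (r = 0.99), Sept9, and 1700017B05Rik. Most like P2rx4 were C1qb, a complement subunit and one of the microglia markers (r = 0.99), Grn, and Ptpn6. Most like P2ry1 were Smg5 (r = 0.98), Kcna4, and Lzts3. Entpd1 was closest to Sall1 (r = 0.98), Shc1, and Dock5, and Nt5e to Rnf170 (r = 0.98), Afap1l1, and Cdh5, the endothelial cadherin. Adora1 was closest to Nudt11 (r = 0.99), Gucy1b1, a subunit of soluble guanylyl cyclase, and Rwdd2a. Adora2a was closest to Calcrl, the receptor subunit shared by CGRP and adrenomedullin (r = 0.95), K230010J24Rik, and Rsph9. Among the genes most like Adora2b were Inha (r = 0.91), the inhibin alpha subunit, and Plpbp. With so many genes compared over 9 mice the highest coefficients are always large, and these names are a description only.

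The other genes of purine signalling were taken as a list of 43, of which 30 passed the filter. They hold the remaining receptors, ectonucleotidases, enzymes that remove adenosine, nucleoside transporters, and ATP release channels. Between OIR and control, 0 of the 30 were higher and 1 was lower after adjustment, beside 0.941% of all genes called in either direction. At an unadjusted p below 0.05, 3 were higher and 8 lower, where 11.1% and 12.7% of all genes were. The called gene was P2rx2, an ATP-gated channel of neurons, which had 75, 98, and 94 counts in controls 1, 6, and 7, against 3, 13, and 8 in the OIR group (3, 5, and 6) and 12, 7, and 19 in the treated group (2, 5, and 10). It fell in OIR in every mouse relative to every control mouse, with a log2 fold change of -3.54 (SE 0.54, edgeR adjusted p = 0.0407), or 11.7-fold lower. This call was sensitive to the set of mice. It was kept in 10 of 19 alternatives, among them the fit without treated OIR mouse 2 (edgeR adjusted p = 0.00604). It was lost when any 1 of the 3 control mice, any 1 of the 3 OIR mice, or treated OIR mouse 5 was left out, with log2 fold changes of -3.20 to -4.05 and edgeR adjusted p of 0.0802 to 0.163. In those fits 0 of all genes were called, and the unadjusted edgeR p of P2rx2 was 8.91e-05 to 0.000759. The call was also lost with scaling by total counts alone (adjusted p = 0.0512) and with sex as a covariate, a setting added after the data were seen (adjusted p = 0.0722).

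Of the others with the smallest p-values in OIR, Ampd3, an AMP deaminase, differed by -0.70 (SE 0.20, edgeR adjusted p = 0.0917), and Slc29a4, a transporter of adenosine and monoamines, by -0.93 (SE 0.26, adjusted p = 0.0938). Exons of Ampd3 share 195 bases with Rnf141 on the other strand, which had 657 to 1101 counts, and the values of Ampd3 are uncertain for that reason. Panx2, a pannexin of neurons, had 1850, 1518, and 1417 counts in controls 1, 6, and 7, against 583, 544, and 341 in the OIR group (3, 5, and 6) and 191, 903, and 1203 in the treated group (2, 5, and 10). Its order of mice was close to that of Adora1, with treated OIR mouse 2 lowest, and its log2 fold change between OIR and control was -1.69 (SE 0.51, edgeR adjusted p = 0.106). Without treated OIR mouse 2, the 3 genes passed, at -0.73, -0.95, and -1.70 (edgeR adjusted p = 0.0400, 0.0128, and 0.00469), and 6 of the 30 were called in all, beside 12.5% of all genes.

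In treated OIR against control, 0 of the 30 were called in either direction, beside 0.0228% of all genes, and 0 were higher and 6 lower at an unadjusted p below 0.05, beside 10% and 8.6% of all genes. P2rx2 differed by -2.62 (SE 0.52, edgeR adjusted p = 0.102), Ampd2, another AMP deaminase, by -0.61 (SE 0.13, adjusted p = 0.102), P2rx5 by -1.21 (SE 0.34, adjusted p = 0.151), and Adk, the kinase that clears adenosine, by -0.39 (SE 0.13, adjusted p = 0.191). DESeq2 on all 9 mice called 2 of the 30 in this comparison, beside 5.47% of all genes, DESeq2 on the 2 groups compared 2, beside 2.38%, limma-voom 3, beside 5.28%, and edgeR on the 2 groups compared 0, beside 0%. In treated OIR against OIR, 0 of the 30 were called by edgeR, by DESeq2, or by limma-voom. The shares of all genes called were 0% by edgeR, 0.214% by DESeq2 on all 9 mice, 0.454% by DESeq2 on the 2 groups compared, and 0.0057% by limma-voom. At an unadjusted p below 0.05 by edgeR, 4 of the 30 were lower and 0 higher, beside 2.3% and 2.39% of all genes. These were Pnp, which breaks down inosine (-0.53, SE 0.17), Entpd2, which converts ATP to ADP (-0.58, SE 0.21), Ampd2 (-0.30, SE 0.13), and P2ry6, the UDP receptor of microglia (-1.28, SE 0.54). With treated OIR mouse 2 left out, Ampd2 was at -0.13 and Entpd2 at -0.49, with edgeR p of 0.177 and 0.0753, while Pnp and P2ry6 had edgeR p of 0.0277 and 0.0252. OIR mice 3, 5, and 6 had 54, 100, and 206 P2ry6 counts, treated animals 2, 5, and 10 had 52, 35, and 29, and the groups overlapped once depth was taken into account. Entpd2 shares 612 exon bases with Npdc1 on the same strand, which had 1687 to 4244 counts, and its values are uncertain for that reason. The median log2 fold change of the 30 genes was 0.01 between OIR and control, -0.08 between treated OIR and control, and -0.08 between treated OIR and OIR.

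**Figure D5:**
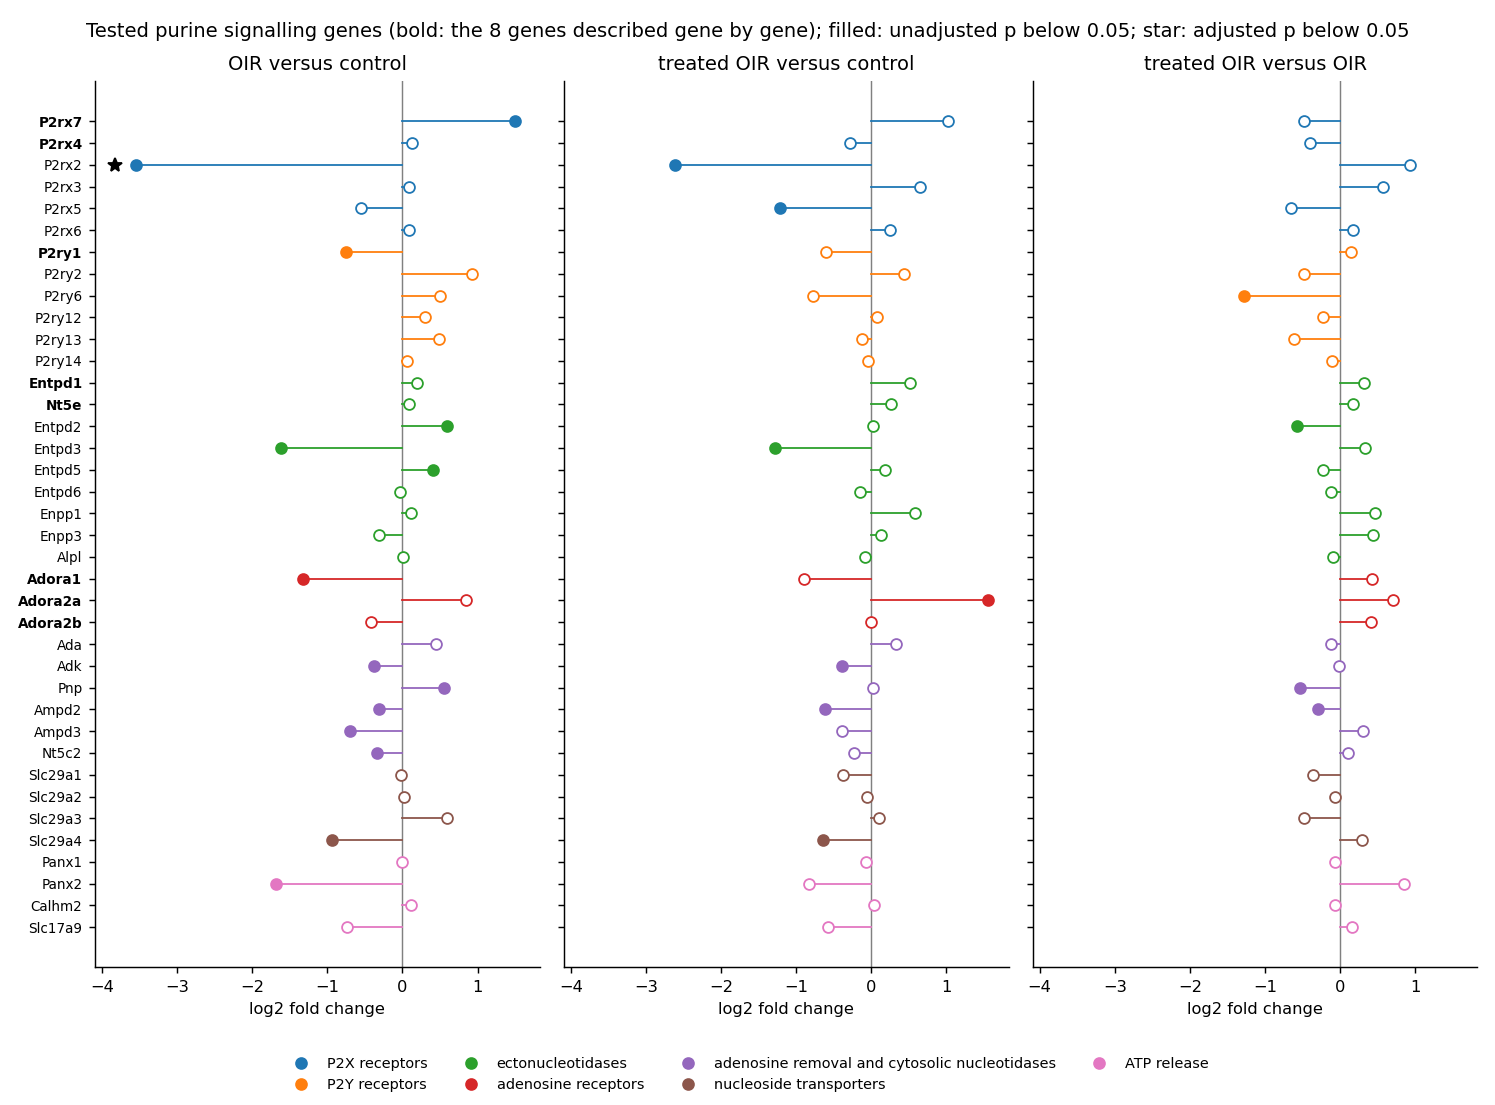
Log2 fold changes of the 38 tested purine signalling genes are plotted for the 3 comparisons, ordered and coloured by role, with the 8 genes described one by one in bold, filled points for an unadjusted edgeR p below 0.05, and a star for an adjusted p below 0.05. The single star marks P2rx2 at -3.54 between OIR and control.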

How the data were processed

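Retinal RNA of 9 mice was sequenced, and the authors deposited unnormalized whole-number counts for each gene, with 1 column per mouse. HISAT and CASAVA are named in the submitters' processing notes, while the counting tool, the annotation, and the use of strand are not given in the sources used here. GENCODE M21 (GRCm38) holds 54495 of the identifiers, 53585 of them at the deposited position, and coordinates are on that build.

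The test was edgeR 4.0.16 under R 4.3.3 (TMM, default filter by group, quasi-likelihood fit of 1 mean per group over all 9 mice, Benjamini-Hochberg adjustment over 17540 genes, called at 0.05). Log2 CPM used a prior count of 2, and RPKM the deposited gene lengths. Alternatives were DESeq2 1.42.0, limma 3.58.1 (voom with sample quality weights), edgeR on the 2 groups compared, other scalings and filters, and leaving out each mouse, while sex or a lens gene score as a covariate was added after the data were seen. Simulated counts with known fold changes were used only to check the code of the fit. They held no library like that of treated OIR mouse 2, so that they do not show how the fit performs with it. Named genes are the 8 genes, the 4 pathway genes with the smallest p in each comparison, and the 3 genes most like each of the 8, of which 1 is not reported here. The 8 genes and the lists were chosen with earlier results of these data known. Promoter sequences are from RefSeq (GRCm38.p6). Tables and figures used Python 3.11.15 and matplotlib 3.10.9.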

Additional observations from a re-analysis of the deposited data

How the results depend on the processing

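Of the 8 genes, edgeR on all 9 mice called 0 in every comparison, against 1 between OIR and control by edgeR on the 2 groups compared, DESeq2 on all 9 mice, and limma-voom, 2 by DESeq2 on the 2 groups compared, and 0 to 1 as each mouse was left out. Between treated OIR and control, both DESeq2 fits and limma-voom called 1. At an unadjusted p below 0.05 the 8 genes numbered 3 between OIR and control (0 to 4 as each mouse was left out) and 1 between treated OIR and control (1 to 3, 2 by DESeq2 on all 9 mice or without the filter, 4 by limma-voom), and limma-voom gave 4 between treated OIR and OIR, where leaving out mice gave 0 to 2. The share of all genes at this unadjusted threshold was computed only for edgeR on all 9 mice. The unadjusted counts under the other settings therefore have no background to be read against.

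Of the pathway list, 1 gene was called between OIR and control, against 4 by edgeR on the 2 groups compared, 6 by each DESeq2 fit, 7 by limma-voom, 0 with scaling by total counts alone, with at least 10 counts in every mouse, or with sex as a covariate, and 0 to 6 as each mouse was left out. Between treated OIR and control, each DESeq2 fit called 2 and limma-voom 3. Of all genes, 165 were called between OIR and control, against 53 with an absolute log2 fold change above 1, 1771 by edgeR on the 2 groups compared, 1994 by DESeq2 on all 9 mice, 2677 by DESeq2 on the 2 groups compared, 2305 by limma-voom, 37 with total counts alone, 532 without the filter, 376 with at least 10 counts in every mouse, 0 with sex as a covariate, 755 with the lens score as a covariate, and 0 to 2272 as each mouse was left out, the last without treated OIR mouse 2. Between treated OIR and control, 4 genes were called, against 0 by edgeR on the 2 groups compared, with DESeq2 size factors, with sex, or with the lens score, 825 and 369 by DESeq2, 926 by limma-voom, 18 without the filter, and 0 to 6 as each mouse was left out. Between treated OIR and OIR, 0 were called, against 33 and 75 by DESeq2, 1 by limma-voom, and 1 without the filter.

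Some values changed sign. Limma-voom gave Adora2b 0.25 between treated OIR and control, and Entpd1 -0.13 and Adk 0.0218 between treated OIR and OIR. Total counts alone gave Pnp -0.0023 and Entpd2 -0.00055 between treated OIR and control, no filter gave Adora2b 0.0011 there, and sex and the lens score gave Adk 0.0244 and 0.0331 between treated OIR and OIR. As each mouse was left out, the log2 fold changes between OIR and control ran from -0.73 to 0.0418 (Adora2b), -0.0619 to 0.37 (P2rx4), -0.0789 to 0.25 (Nt5e), and -0.0648 to 0.90 (P2ry6), between treated OIR and control from -0.24 to 0.46 (Adora2b), -0.0755 to 0.10 (Pnp), and -0.0553 to 0.10 (Entpd2), and between treated OIR and OIR from -1.14 to 0.0813 (P2rx7), -0.0195 to 0.31 (P2ry1), -0.0925 to 0.54 (Entpd1), -0.0308 to 0.38 (Nt5e), and -0.11 to 0.0813 (Adk). Over all settings, 1009 of the recomputed values kept direction and side of the threshold, 34 passed it, 9 no longer passed, and 25 changed sign. The cause of these changes was not tested. No paired analysis was possible because the groups share at most 1 replicate number. With 3 mice per group and 19 to 254 counts for P2rx7, 24 to 125 for Adora2a, and 26 to 104 for Adora2b, small differences of these genes were not detectable.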
